A study of Mus musculus with 24 samples.

Results

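Fos, Fosb, Fosl2, Jun, Junb and Jund encode subunits of AP-1, a dimeric transcription factor, and are described here from RNA sequencing of mouse prefrontal cortex collected at postnatal day 40. The 6 genes were chosen by name from the Fos and Jun families, out of 18240 genes measured. All 6 had a mean of at least 10 normalized reads and so entered the tests, which covered 16825 genes.

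AP-1 forms when a Jun protein pairs with another Jun protein or with a Fos protein through leucine zippers, and it binds the DNA element TGACTCA and relatives of it. Fos proteins do not pair stably with one another, so DNA binding by Fos, Fosb and Fosl2 needs a Jun partner. In neurons most of these genes are immediate early genes. Synaptic activity and calcium entry switch them on within minutes through the factors Creb1, Srf and Elk1, which are already present, and their messages are short-lived. Jund is known for a steadier level in many tissues.

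The study compared mice carrying 1 copy of a Dyrk1a allele named I48X (Dyrk1a+/I48X, abbreviated HT) with wild-type (WT) mice, all on the strain C57BL/6J and of the same age. Dyrk1a encodes a protein kinase studied in neurodevelopmental disorders. There were 4 arms of 6 libraries, each with 3 from females and 3 from males: WT on vehicle, HT on vehicle, HT on fluoxetine and HT on lithium. Fluoxetine is a serotonin reuptake inhibitor, and lithium is a mood stabiliser that inhibits Gsk3b. All 12 drug libraries came from HT mice, and no WT library on a drug was analysed here, so a drug effect is measured on the HT genotype only. The sources used here give no dose, treatment length or vehicle. Libraries are named by arm, sex and replicate number.

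Bulk RNA was measured, so fewer cells of a type and less RNA per cell cannot be told apart. Depth ran from 24133344 to 35940460 reads per library. Dyrk1a itself had medians of 2169 normalized reads in the WT arm and 2365, 2457 and 2454 in HT on vehicle, fluoxetine and lithium. A gene's total does not separate the I48X copy from the normal copy, so it checks no label. Cux2, Fezf2, Neurod6, Slc17a7 and Tbr1, markers of cortical excitatory neurons, were detected in every library. All 6 markers of olfactory bulb neurons (Cdhr1, Doc2g, Eomes, Pbx3, Sp8, Tbx21) were in the table too, at summed levels from 319.6 to 22730 normalized reads, a spread seen inside each arm. The 6 libraries with the highest olfactory bulb score are called bulb-high: HT fluoxetine female 1 and male 1, HT lithium male 1, HT vehicle female 2 and male 3, and WT vehicle female 2. Batch P40_L2 held all 6 lithium libraries and HT fluoxetine female 3, and P40_L1 held the other 17. The labels name the batches, and at which step they were formed is not known here. The labels do not tie libraries to individual animals. The p-values therefore cover the spread between these libraries only, which may be technical.

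The stretches just upstream of the start sites of Fos, Fosb, Fosl2, Jun and Junb are shown because the levels of these genes moved together across libraries, as described further on. Each is the 250 bases before the RefSeq start on GRCm38.p6, 5′ to 3′ on the gene's own strand. Capitals mark matches to TGACG (the core of the Creb1 element TGACGTCA), to TGACATCA (the AP-1 variant in Jun) and to TATAAA.
Fos: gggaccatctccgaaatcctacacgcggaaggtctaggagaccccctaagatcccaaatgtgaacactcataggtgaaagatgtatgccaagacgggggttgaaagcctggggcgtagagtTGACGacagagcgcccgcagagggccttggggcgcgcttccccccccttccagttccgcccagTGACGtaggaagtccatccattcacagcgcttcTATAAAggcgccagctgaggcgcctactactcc
Fosb: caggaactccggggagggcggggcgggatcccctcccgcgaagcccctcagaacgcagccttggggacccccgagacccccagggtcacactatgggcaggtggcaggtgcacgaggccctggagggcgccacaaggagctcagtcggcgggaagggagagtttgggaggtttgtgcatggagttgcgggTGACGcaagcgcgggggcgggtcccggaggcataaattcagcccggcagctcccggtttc
Fosl2: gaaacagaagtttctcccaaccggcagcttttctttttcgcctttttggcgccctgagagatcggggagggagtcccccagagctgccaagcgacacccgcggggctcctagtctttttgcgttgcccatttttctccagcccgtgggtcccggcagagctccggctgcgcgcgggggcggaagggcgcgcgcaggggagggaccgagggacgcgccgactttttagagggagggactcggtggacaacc
Jun: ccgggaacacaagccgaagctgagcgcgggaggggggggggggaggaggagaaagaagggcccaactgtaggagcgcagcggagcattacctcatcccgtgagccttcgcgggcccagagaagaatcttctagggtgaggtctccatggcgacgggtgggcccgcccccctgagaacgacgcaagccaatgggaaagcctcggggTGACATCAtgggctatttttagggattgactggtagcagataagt
Junb: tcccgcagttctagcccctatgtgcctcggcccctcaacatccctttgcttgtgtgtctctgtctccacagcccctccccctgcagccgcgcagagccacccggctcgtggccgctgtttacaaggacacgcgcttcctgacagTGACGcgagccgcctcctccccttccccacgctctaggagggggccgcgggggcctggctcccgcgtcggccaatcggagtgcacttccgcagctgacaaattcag
The windows are chr12:85473640-85473889 on the plus strand for Fos, chr7:19310046-19310295 on the minus strand for Fosb, chr5:32136222-32136471 on the plus strand for Fosl2, chr4:95052223-95052472 on the minus strand for Jun and chr8:84978749-84978998 on the minus strand for Junb. In all, 6 motifs were searched on both strands: the core TGACG, the full Creb1 element TGACGTCA that contains this core, the AP-1 element TGACTCA, the variant TGACATCA, the TATA element TATAAA, and the CArG box bound by Srf. TGACG occurred 2 times before Fos and 1 time each before Fosb and Junb, and 17.8% of 32841 RefSeq promoter windows of this length hold it. TGACATCA occurred 1 time before Jun, against 2.93% of windows, and TATAAA 1 time before Fos, against 12.4%. The full Creb1 element (1.55% of windows), the AP-1 element TGACTCA (4.46%) and the CArG box (1.47%) had no match in any of the 6 windows. Sequence farther than 250 bases before the start was not searched, so elements there are not covered. The Fosl2 and Jund windows held none of these motifs, and their RefSeq starts lie 671 bases downstream and 1210 bases upstream of the start in the gene annotation used for the counts' names. A match is a description of letters and not a measured binding site. A link between these sequences and the joint movement of the levels was not tested.

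The messages of Jund and Junb were the most abundant, and those of Fosb the least, with or without division by length. Before that division, mean normalized reads of Fosl2 (1345) and Jun (1300) exceeded those of Fos (1151). Protein was not measured. Averaged over 24 libraries and divided by the length of the merged exons, the levels per kilobase were 1422 normalized reads for Jund, 890 for Junb, 489 for Fos, 408 for Jun, 139 for Fosl2 and 88.3 for Fosb. The mean recovered depth behind them ran from 561 reads for Fosb to 2390 for Jund. Some annotated genes overlap members: Junos on the strand opposite Jun, at a median of 9.46 normalized reads, Gm11175 opposite Jund, at 61.3, and Prdx2 at the end of Junb, at 4563. The strand setting of the counting is not given in the sources used, so shared reads in the Junb and Prdx2 overlap cannot be placed.

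Fos (ENSMUSG00000021250, chr12:85473890-85477273) is the classic marker of recent neuronal activity. In the 6 WT vehicle libraries its level ran from 316 through a median of 957 to 2894 normalized reads. The lowest, median and highest values were 743, 938 and 2112 in HT vehicle, 613, 831 and 1286 in HT fluoxetine, and 707, 1231 and 2129 in HT lithium. The 4 arms overlapped, and the lowest and the highest of all 24 libraries were both WT on vehicle. Arm means were 1232 ± 929 (SD, n = 6), 1206 ± 571, 909.9 ± 293 and 1255 ± 482 in the same order.

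Fosb (ENSMUSG00000003545, chr7:19302696-19310051) gives the full-length protein and, by splicing, the long-lived deltaFosB, which gene totals do not separate. Its lowest, median and highest values were 206, 404 and 1968 normalized reads in WT vehicle and 285, 353 and 812 in HT vehicle. They were 241, 420 and 742 in HT fluoxetine and 263, 440 and 1266 in HT lithium. Again the arms overlapped, and WT vehicle held both extremes. The arm means were 719 ± 681 (SD, n = 6) in WT vehicle, 468 ± 227 in HT vehicle, 460.0 ± 191 in HT fluoxetine and 557 ± 356 in HT lithium. The WT vehicle mean was the highest. WT vehicle females 1 and 2 stood at 1049 and 1968 and its other 4 libraries between 206 and 421.

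Fosl2 (ENSMUSG00000029135, chr5:32135801-32157842) encodes Fra-2, a Fos-family subunit with a slower and longer induction than Fos in many cells. It had lowest, median and highest values of 642, 1020 and 2925 normalized reads in WT vehicle and 674, 930 and 1573 in HT vehicle. The corresponding values were 889, 1410 and 2131 in HT fluoxetine and 663, 1126 and 3343 in HT lithium. HT lithium male 1 was the highest of the 24, and the remaining lithium libraries did not exceed 1232. Means were 1460 ± 963, 1038 ± 345, 1483 ± 505 and 1399 ± 974 (SD, n = 6) in WT vehicle, HT vehicle, HT fluoxetine and HT lithium.

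Jun (ENSMUSG00000052684, chr4:95049034-95052222), the founding Jun subunit and a target of the JNK kinases, was far steadier. Its lowest, median and highest values were 986, 1154 and 1684 normalized reads in WT vehicle, 1090, 1314 and 1530 in HT vehicle, 1186, 1309 and 1481 in HT fluoxetine, and 974.8, 1265 and 1702 in HT lithium. The arms lay on top of one another. Their means ran only from 1259 ± 283 (SD, n = 6) in WT vehicle to 1329 ± 168 in HT vehicle.

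Junb (ENSMUSG00000052837, chr8:84974484-84978718) encodes an inducible Jun protein that often counteracts Jun. Lowest, median and highest values were 881, 2001 and 3231 normalized reads in WT vehicle, 1641, 1963 and 2799 in HT vehicle, 1220, 1762 and 2323 in HT fluoxetine, and 1803, 2458 and 2981 in HT lithium. All 6 lithium libraries lay above the fluoxetine mean, although the ranges of these arms overlapped. The means were 1984 ± 891, 2044 ± 398, 1780 ± 385 and 2382 ± 452 (SD, n = 6) in WT vehicle, HT vehicle, HT fluoxetine and HT lithium.

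Jund (ENSMUSG00000071076, chr8:70698949-70700616), the Jun subunit with the steadiest level, spanned only 1.31-fold over the 24 libraries. It ran from 2193 through a median of 2357 to 2645 normalized reads in WT vehicle and from 2042 through 2335 to 2361 in HT vehicle. HT fluoxetine gave 2241, 2315 and 2413, and HT lithium 2177, 2552 and 2670. Means were 2401 ± 166, 2267 ± 128, 2324 ± 69.5 and 2497 ± 173 (SD, n = 6) in the same order. Lithium had the highest mean, with 5 of its 6 libraries above the HT vehicle mean, but its lowest library, at 2177, lay below the WT vehicle and HT fluoxetine ranges and inside that of HT vehicle. For each of the 6 genes, neighbours in the order of arm means differed by less than the larger SD of the pair.

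**Figure D1:**
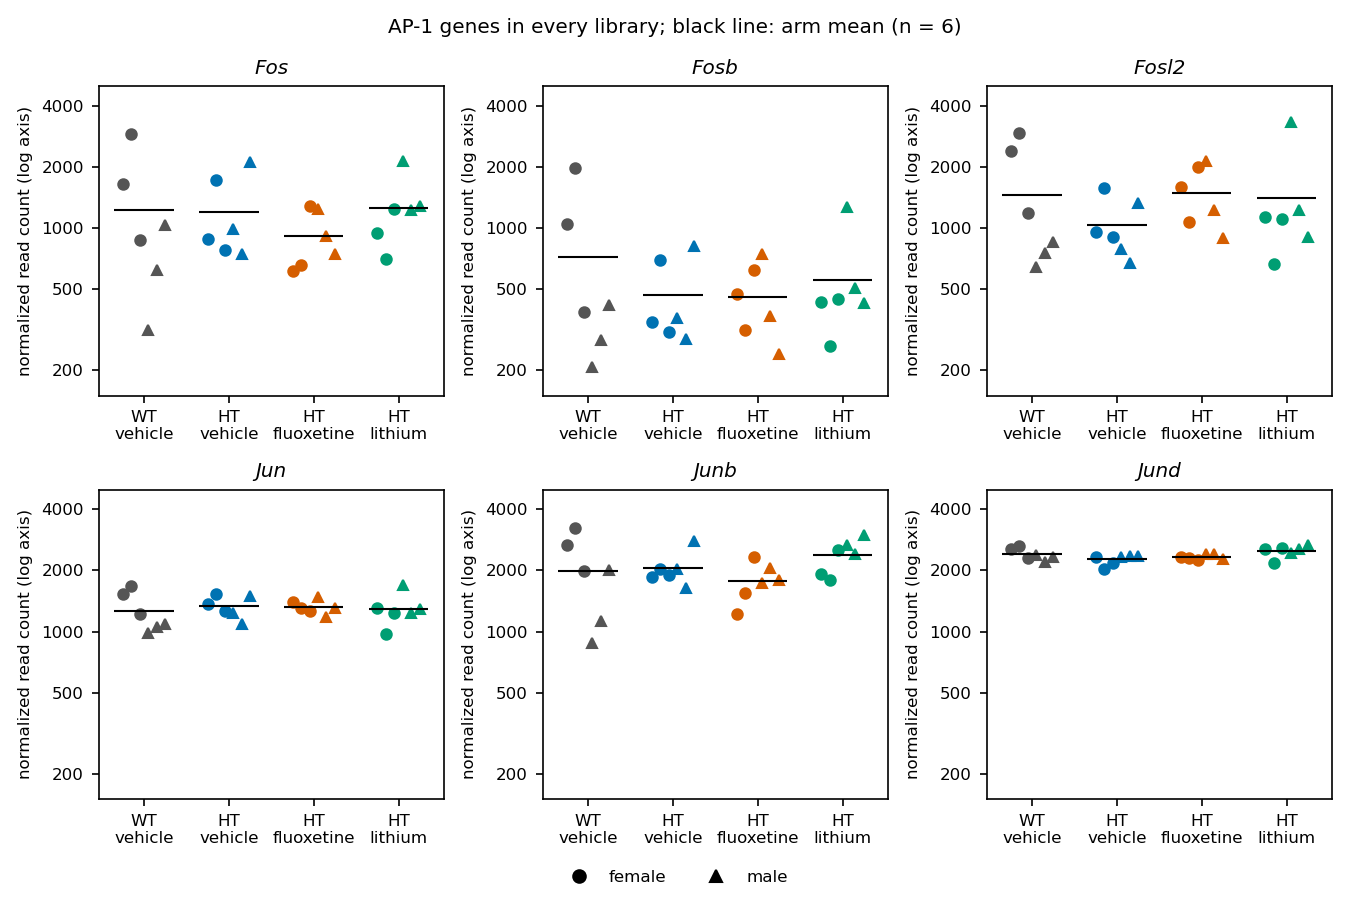
Normalized read count of each AP-1 gene (log axis) in the 24 libraries, by arm, with females and males as separate symbols. Fos, Fosb and Fosl2 spread over 9.16-fold, 9.54-fold and 5.21-fold, Jund over 1.31-fold, and the arms overlap for every gene.

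Most of the spread of each gene lay between libraries of the same arm, from 69.7% of the sum of squares for Jund to 97.5% for Fosb. The arm means of Fos differed by at most 1.38-fold, while the WT vehicle libraries alone spanned 9.16-fold. For Fosb the figures were 1.56-fold between arm means and 9.54-fold within WT vehicle, and for Fosl2 they were 1.43-fold and 5.05-fold within HT lithium. Junb showed 1.34-fold between arm means and 3.67-fold within WT vehicle. Jun showed 1.06-fold and 1.75-fold, and Jund 1.10-fold and 1.23-fold. A range over single libraries is wider than a range over means by construction, so these folds give the sizes only.

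The 3 Fos-family genes were among the most variable of the genes tested. The SD within a group of 3 libraries of the same arm and sex, on the log2 scale, was 0.64 for Fos, 0.75 for Fosb and 0.59 for Fosl2, above 95.2%, 96.6% and 93.8% of the 16825 genes tested. Junb stood at 0.35, above 78.2% of genes, and Jun at 0.19, close to the median of all genes, 0.18. Jund at 0.079 was among the least variable, being above only 9.997% of genes. Counting error alone would give between 0.030 and 0.072 for the 6 genes, so the measured spread was 13.4 times counting error for Fos and 2.65 times for Jund.

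The share of the sum of squares that lay between arms was 6.21% for Fos, 2.46% for Fosb, 7.49% for Fosl2 and 3.64% for Jun. The median over all genes tested was 8.97%, and 13.0% is the share that 4 arms of 6 libraries take on average with no arm effect. Junb had 14.8% and Jund 30.3%, and Jund was above 94.1% of genes. HT lithium had the highest arm mean of both, and all its libraries were in batch P40_L2. Their shares between arms therefore include any difference between the batches. Single libraries moved these shares. With each library left out in turn, Fos ran from 3.99% to 14.97%, Fosb from 1.189% to 7.99%, Fosl2 from 4.44% to 13.4%, Jun from 1.26% to 13.3%, Junb from 10.5% to 24.7% and Jund from 24.8% to 48.1%. The highest value came without WT vehicle female 2 for Fos, Jun and Junb, without WT vehicle male 1 for Fosb, without HT lithium male 1 for Fosl2 and without HT lithium female 2 for Jund. The lowest came without HT lithium male 1 for Fos, WT vehicle female 1 for Fosb, HT vehicle male 2 for Fosl2, WT vehicle male 1 for Jun and HT lithium male 3 for Junb and Jund. A moderated F test of any difference among the 4 arms (limma, Benjamini-Hochberg adjustment over all genes) called none of the 6, with unadjusted p from 0.0521 for Jund and 0.134 for Junb to 0.861 for Fosb and an adjusted p of 1 for each. It called 0.0% of all genes, while 685 genes (4.07%) had an unadjusted p under 0.05 and edgeR called 0. The member with the least spread was the one with the largest share between arms, and that share did not pass the test.

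**Figure D2:**
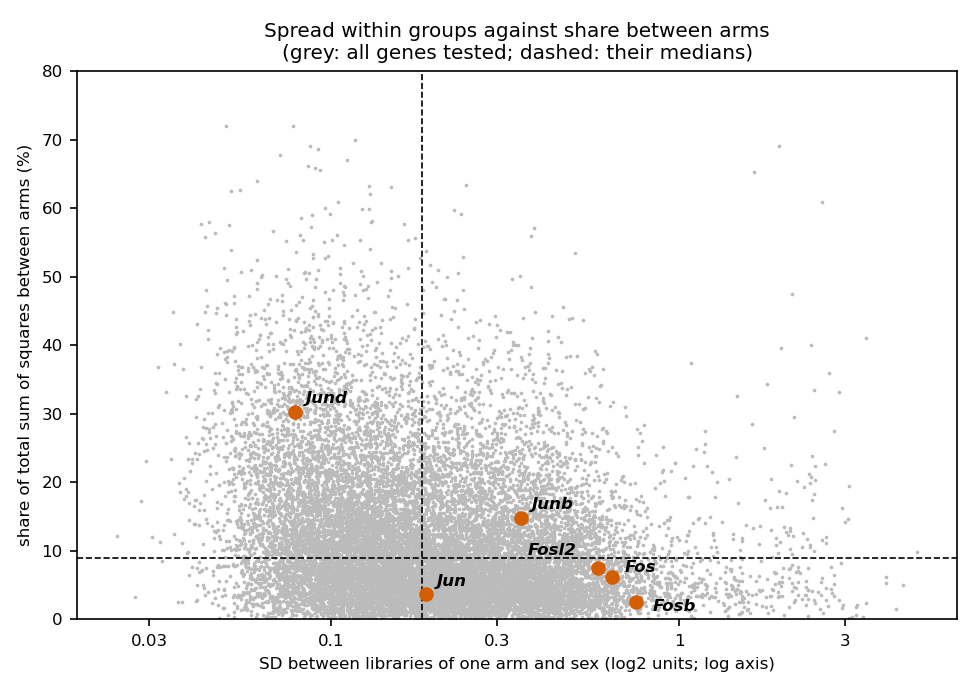
Within-group SD (log2 scale) against the percent of the sum of squares between arms for all genes tested (grey) and the 6 AP-1 genes. Fos, Fosb and Fosl2 lie far along the within-group axis at 6.21%, 2.46% and 7.49% between arms, and Jund lies at a low SD with 30.3%.

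The first comparison asked whether the Dyrk1a allele went with different AP-1 levels, from HT and WT libraries that were both on vehicle. None of the 6 genes passed the test (limma on log2(value + 1), both sexes weighted equally), and 0.0% of all genes did. At an unadjusted p under 0.05 there were 455 genes (2.7%), no member among them, and edgeR and DESeq2 each called 0 genes. Fos differed by 0.19 ± 0.34 (log2, SE), with an interval of 95% confidence from −0.53 to 0.91. Fosb differed by −0.28 ± 0.40 and Fosl2 by −0.31 ± 0.31, with 5 of 6 HT vehicle libraries below the WT mean for each. WT vehicle females 1 and 2 raised that mean, at 1049 and 1968 normalized reads for Fosb and 2398 and 2925 for Fosl2. Jun differed by 0.10 ± 0.10 and Junb by 0.16 ± 0.19. For Jund the difference was −0.08 ± 0.05, with an interval from −0.18 to 0.02, and all 6 HT vehicle libraries lay below the WT mean of 2401 while the ranges overlapped. The highest HT vehicle library of Jund, at 2361, lay above the WT median of 2357. The intervals of Fosb and Fosl2 reached from −1.11 to 0.56 and from −0.96 to 0.35, and that of Jun from −0.12 to 0.31. With the olfactory bulb score as a term, the differences were 0.36 for Fos, −0.04 for Fosb and −0.11 for Fosl2. They were then 0.15 for Jun, 0.21 for Junb and −0.08 for Jund.

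Fluoxetine was compared with vehicle within HT mice. No member passed, against 0.0119% of all genes, and none had an unadjusted p under 0.05, against 5.71%. Fosl2 had the smallest p of the 6, 0.124 before adjustment and 0.983 after it in limma, at 0.50 ± 0.31 (log2, SE; interval −0.15 to 1.16). The fluoxetine mean of Fosl2 was 1483 against 1038, and 5 of 6 fluoxetine libraries were above the HT vehicle mean. Without HT fluoxetine male 1 the difference was 0.33. Fos differed by −0.35 ± 0.34, Junb by −0.21 ± 0.19 and Jund by 0.04 ± 0.05, while Fosb and Jun differed by less than 0.01 with standard errors of 0.40 and 0.10. Without the 6 bulb-high libraries Fos and Junb changed sign, to 0.05 each.

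Lithium was likewise compared with vehicle within HT mice. No member passed, again against 0.0119% of all genes. Jund had an unadjusted p of 0.0095 and an adjusted p of 1 in limma, at 0.14 ± 0.05 (log2, SE; interval 0.04 to 0.24), where 2.75% of all genes had an unadjusted p under 0.05. Its value was 0.13 without the bulb-high libraries, 0.14 by both edgeR and DESeq2, and between 0.11 and 0.18 when each library was left out in turn. Junb differed by 0.22 ± 0.19, Fosl2 by 0.28 ± 0.31, Fosb by 0.20 ± 0.40, Fos by 0.10 ± 0.34 and Jun by −0.05 ± 0.10. Without HT lithium male 1 the values were 0.01 for Fosl2 and −0.04 for Fosb. All lithium libraries were in batch P40_L2 and all HT vehicle libraries in P40_L1, so drug and batch cannot be told apart. With batch as a term, which then rests on HT fluoxetine female 3 alone, the differences were −0.92 for Fos, −0.48 for Fosb, −0.33 for Fosl2, 0.05 for Jun, −0.54 for Junb and 0.19 for Jund.

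Among the other pairs of arms, which share libraries with those above, no member passed either. Lithium minus fluoxetine gave 0.43 ± 0.19 (log2, SE) for Junb, with an unadjusted p of 0.0353 and an adjusted p of 0.879 in limma. It gave 0.10 ± 0.05 for Jund, with p of 0.0493 and 0.890. In that comparison 0.0238% of all genes passed, 5.59% had an unadjusted p under 0.05, and the arms did not overlap for 0.321%, no member among them. Lithium minus WT vehicle gave 0.38 ± 0.19 for Junb, with an unadjusted p of 0.0578, and fluoxetine minus WT vehicle gave less than 0.3 in size for every member. In these comparisons 2.56% and 4.38% of all genes had an unadjusted p under 0.05, and no member did. Batch separates lithium from WT vehicle wholly and from fluoxetine apart from HT fluoxetine female 3, so drug and batch cannot be told apart in these pairs either. Fluoxetine and WT vehicle were both in P40_L1 but for that library.

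**Figure D3:**
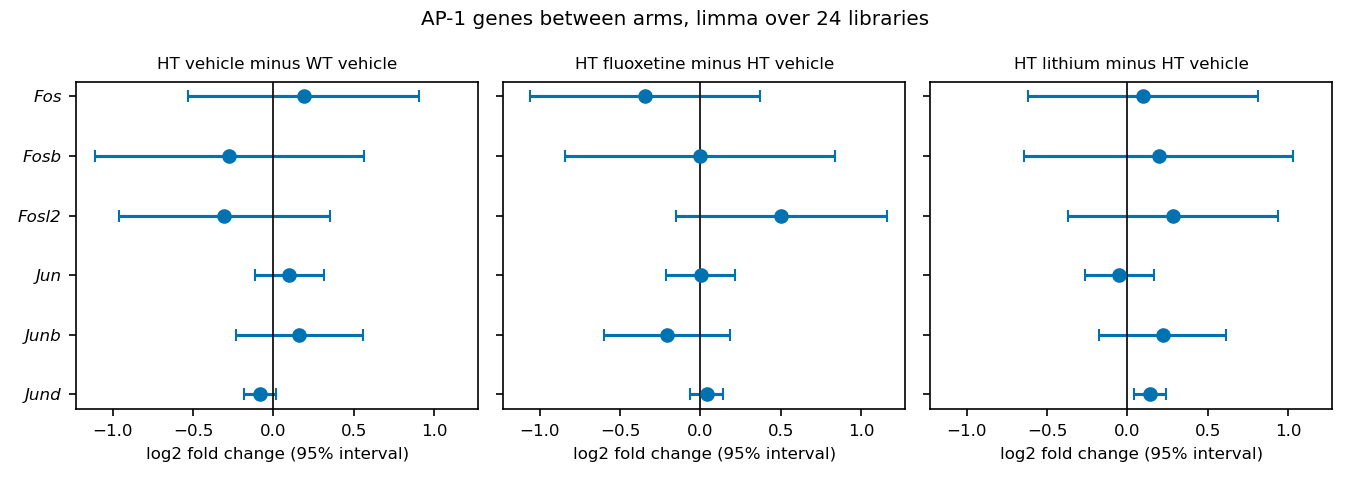
Log2 fold change of each AP-1 gene with its 95% confidence interval in the 3 main comparisons (limma over 24 libraries). The intervals of Fos, Fosb and Fosl2 are several times wider than that of Jund, and the only interval that leaves out 0 is Jund on lithium, 0.04 to 0.24, before adjustment over all genes.

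The sexes were compared over all arms and within the genotype effect. Males and females did not differ by the test for any member, and 0.0832% of all genes passed. Nor did any have an unadjusted p under 0.05, as 2.59% of all genes did. The smallest unadjusted p was 0.185, for Fosl2 at −0.30 ± 0.22 (log2, male minus female, SE). Within WT vehicle the values were these. Fos stood at 1649, 2894 and 874 normalized reads in WT females 1, 2 and 3 and at 316, 619 and 1041 in WT males 1, 2 and 3. Junb stood at 2664, 3231 and 1986 in those females and 881, 1124 and 2017 in those males. Fosl2 stood at 2398, 2925 and 1187 in the females and 642, 754 and 853 in the males. The WT sexes did not overlap for Fosl2 and for Jun, which ran from 1217 to 1684 in the females and 986 to 1091 in the males, and they overlapped for the other 4 members. Of all genes, 19.2% did not overlap between these sexes. Sex within WT was not tested by itself.

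The genotype difference on vehicle had opposite signs in the sexes for all 6 genes, though the values of Jun in females and Jund in males were small. The share of all genes with opposite signs is not given, so the 6 cannot be set against it. Fos was −0.60 in females and 0.98 in males (HT minus WT, log2), Fosb −1.14 and 0.59, Fosl2 −0.87 and 0.26, Jun −0.08 and 0.28, Junb −0.42 and 0.74, and Jund −0.19 and 0.03. The difference between the sexes in this effect (male effect minus female effect, log2, SE) was 1.16 ± 0.38 for Junb, 1.58 ± 0.69 for Fos, 1.73 ± 0.80 for Fosb, 1.13 ± 0.63 for Fosl2, 0.36 ± 0.21 for Jun and 0.22 ± 0.10 for Jund. The unadjusted limma values were 0.00618 for Junb, 0.0334 for Fos, 0.0438 for Fosb, 0.0868 for Fosl2, 0.0956 for Jun and 0.0329 for Jund. Adjusted over all genes, limma's p was 0.996 for each, so none passed. In this comparison 0.0% of all genes passed, and 2.17% had an unadjusted p under 0.05, as 4 of the 6 members did. The members were correlated, so these 4 are not separate observations. The olfactory bulb score differed along with them: it was 1.18, 2.99 and 0.79 in WT females 1, 2 and 3 and −2.55, −0.54 and 0.77 in the males. With that score as a term the difference was 1.04 for Junb, 1.12 for Fos, 1.11 for Fosb, 0.63 for Fosl2, 0.22 for Jun and 0.22 for Jund. Without the bulb-high libraries it was 0.83 for Junb, 1.07 for Fos, 1.11 for Fosb, 0.83 for Fosl2, 0.21 for Jun and 0.13 for Jund.

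The 6 genes were then compared with one another across the 24 libraries. Over the 10 pairs without Jund, Pearson's r of log2(value + 1) ran from 0.53 to 0.92, and all 10 had an adjusted p under 0.05 (permutation test, two-sided, adjusted over 15 pairs). The highest was Fosb with Fosl2, at r = 0.92 and rho = 0.91, followed by Fos with Fosb (r = 0.90, rho = 0.86) and Fos with Junb (r = 0.89, rho = 0.89). Each of these had a permutation p of 1e-05, the smallest that 100000 resamples can give, and an adjusted p of 3e-05. Without the 2 libraries farthest from the median of the first-named gene, r was 0.88, 0.87 and 0.82. Within P40_L1 it was 0.91, 0.90 and 0.91, and within P40_L2, over 7 libraries, 0.97, 0.94 and 0.78. Jund had lower r, from 0.27 to 0.46, and by r 1 of its 5 pairs (Junb, adjusted permutation p = 0.031) passed. By rho, Jund passed with Junb (0.51, adjusted permutation p = 0.0177), Fosb (0.48, 0.0281) and Fos (0.45, 0.0371). It did not pass by rho with Fosl2 (0.36, 0.0895) or Jun (0.26, 0.218).

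Junb followed Fos more closely than it followed Fosl2. Fosl2 and Junb had r = 0.53 (rho = 0.55, permutation p = 0.00785, adjusted 0.0118), and 0.39 without the 2 farthest libraries. Fosl2 was closer to Fosb and to Jun (r = 0.86, rho = 0.80). After the 8 group means and the olfactory bulb score were removed, Fos with Junb kept r = 0.91 and Fosb with Fosl2 kept 0.82, while Fosl2 with Junb was 0.28 and Jun with Junb 0.23. Over the 10 pairs without Jund, the median r was 0.59 after that removal, against 0.81 before it. The differences between these correlations were not tested. The share of all gene pairs that would pass is not given, so the passing pairs cannot be set against it.

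**Figure D4:**
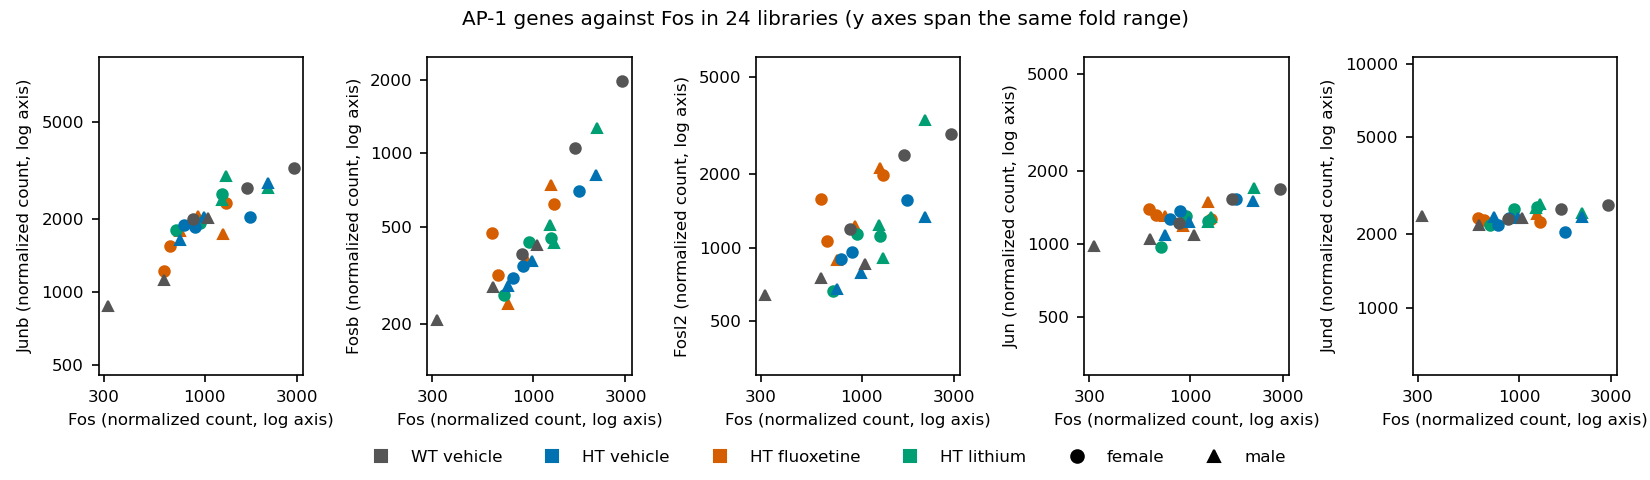
Normalized read count of the other 5 AP-1 genes against Fos (log axes) in the 24 libraries. Fosb and Junb rise with Fos at r = 0.90 and 0.89, and Jund, with its small range, stays nearly level at r = 0.34 (rho = 0.45).

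Genes outside the family with the pattern most like each member were listed as a description, by r over the same 24 libraries. For Fos they were Nr4a1 (0.93), an immediate early nuclear receptor, 1700016P03Rik (0.91), Egr2 (0.87), a zinc-finger immediate early factor, Ier2 (0.87), Sik1 (0.83), a kinase induced by cAMP, Egr1 (0.82), Gem (0.80), a small GTPase, Dusp5 (0.79), a phosphatase of nuclear ERK, Slc9a3r1 (0.78) and Arc (0.77), a synaptic immediate early gene. The r to Fos was also taken after the 8 group means and the olfactory bulb score were removed. It was then 0.93 for Nr4a1, 0.87 for Egr2, 0.86 each for 1700016P03Rik and Ier2, 0.84 for Egr1 and 0.83 for Arc. For Sik1 it was 0.71, for Dusp5 0.59, for Gem 0.42 and for Slc9a3r1 0.39. The genes most like Junb over the 24 libraries were Arc (0.93), Egr2 (0.91) and Dusp1 (0.89), a phosphatase of MAP kinases. Fosl2 and Fosb shared their leading gene, Nfil3, a bZIP repressor, at 0.96 and 0.92. The next were Arid5a (0.94) and Dusp5 (0.93) for Fosl2, and Dusp5 (0.90) and Scg2 (0.90), a secretogranin, for Fosb. Jun was nearest to Sik1 (0.88), Kdm6b (0.87), a histone demethylase, and Dusp5 (0.87). Jund was nearest to Pim3 (0.75), a kinase, Atf4 (0.74), the bZIP factor of the integrated stress response, and Lrfn4 (0.72). Of the 25 other immediate early genes listed, the median r to Fos was 0.63, with a range from −0.34 to 0.93.

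The levels of 4 members rose with the olfactory bulb score of a library, in a fit added after the data had been seen. The slope per unit of score (log2, limma, 8 group means kept) was 0.18 ± 0.04 for Fos (adjusted p = 0.000745), 0.25 ± 0.04 for Fosb (1.69e-05), 0.20 ± 0.03 for Fosl2 (5.76e-06) and 0.06 ± 0.01 for Jun (0.000536). Over all genes, 52.5% had a slope that passed in either direction and 26.0% one that was higher, so a passing slope was common. The sizes for Fos, Fosb and Fosl2 were above the 95th percentile of all genes, 0.17. Junb at 0.05 ± 0.03 (adjusted p = 0.197) and Jund at 0.00 ± 0.01 (0.897) did not pass. The score took up 52.8% of the within-group sum of squares of Fos, 71.4% of that of Fosb, 75.8% of Fosl2 and 57.6% of Jun, but 11.5% of Junb and 0.204% of Jund. What the score took up over all genes is not given, so these percentages cannot be set against it. All 6 markers of cortical excitatory neurons had a passing slope on this score in the lower direction. A higher score therefore went with lower cortical marker levels, and the 2 signals cannot be told apart here.

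Without the 6 bulb-high libraries the slopes of Fos, Fosb and Fosl2 were 0.20, 0.21 and 0.18, with adjusted p of 0.0498, 0.0326 and 0.00974 in limma, where 5.62% of all genes passed. Jun's was 0.03 and no longer passed (0.310). The summed level of the 6 olfactory bulb markers ran from 770.6 to 18740 normalized reads in WT vehicle, 562.4 to 16410 in HT vehicle, 657.6 to 22730 in HT fluoxetine and 319.6 to 20010 in HT lithium. No slope on a striatal marker score passed for any member. What the olfactory bulb signal, or the lower cortical signal that goes with it, contributes to the spread of the Fos genes beyond these values was not tested.

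**Figure D5:**
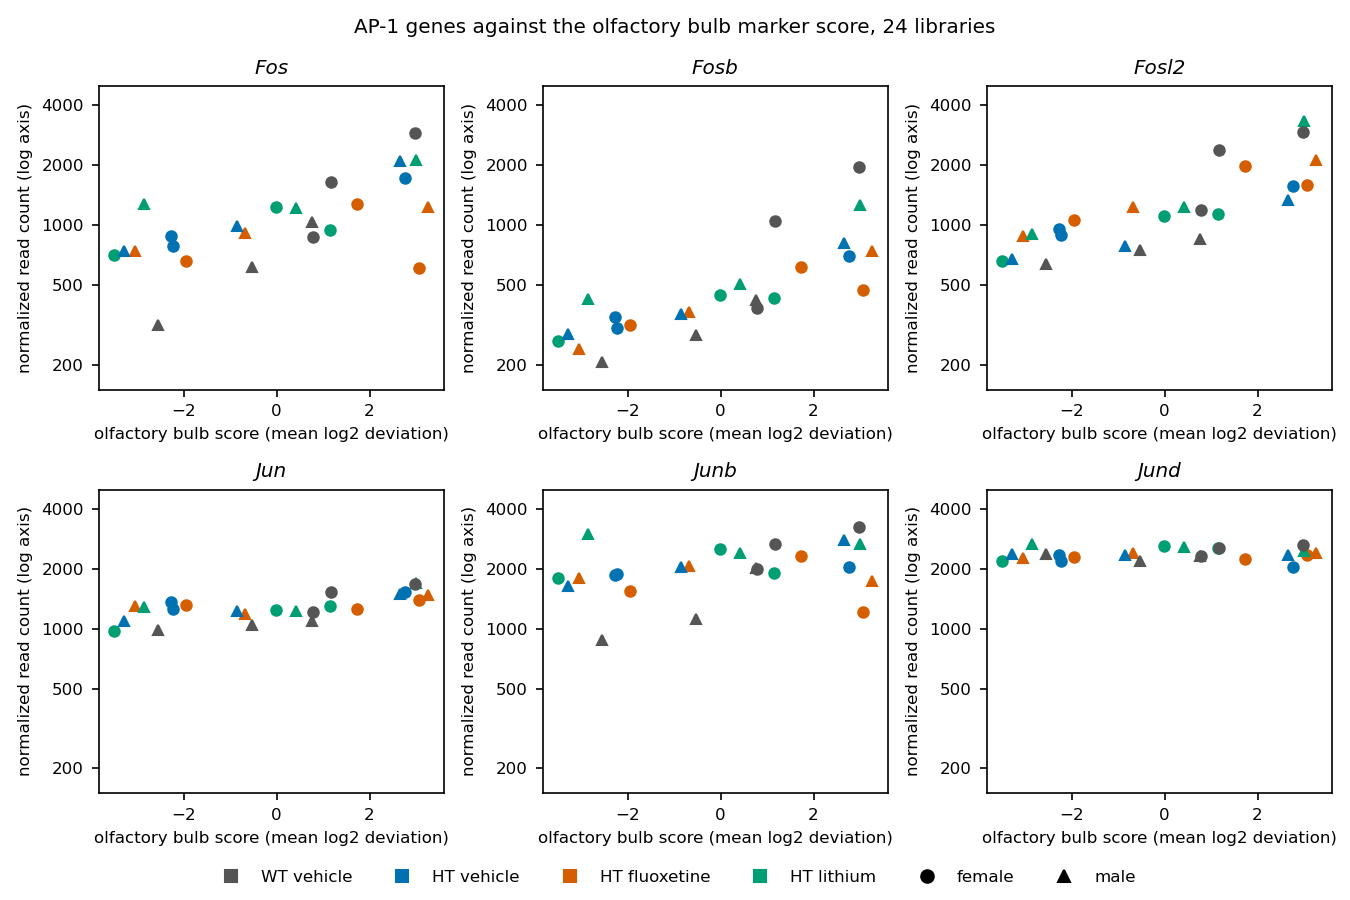
Normalized read count of each AP-1 gene (log axis) against the olfactory bulb marker score (mean log2 deviation of 6 markers) in the 24 libraries. Fosb and Fosl2 climb from the lowest to the highest scores in all 4 arms, with slopes of 0.25 and 0.20, whereas Jund stays flat.

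The other genes of the pathway were described in 4 lists. In each list, lithium against HT vehicle also compares batch P40_L2 with P40_L1, so drug and batch cannot be told apart. Among other AP-1 and partner bZIP genes, 11 of 14 were tested and 0 were called in any comparison. Atf4 differed by 0.11 ± 0.03 (log2, SE) on lithium against HT vehicle, with an unadjusted p of 0.00161, and Batf3 by −0.51 ± 0.21. Mafg differed by 0.10 ± 0.04 and Maff by 0.36 ± 0.25 on fluoxetine. Atf7 and Batf3 differed by 0.09 ± 0.04 and 0.40 ± 0.21 in HT against WT on vehicle. Adjusted p in limma was above 0.78 for each of these. The median difference of the list was −0.05, 0.01 and 0.06 for genotype, fluoxetine and lithium, against medians over all genes between −0.01 and 0.

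Of the 19 upstream kinases and factors, all were tested and 0 were called. Their median differences were 0.00 in all 3 comparisons, and their median within-group SD was 0.14, below the 0.18 of all genes, while that of the 6 members was 0.47. Creb1, the calcium- and cAMP-regulated activator of Fos, differed by 0.19 ± 0.07 on fluoxetine and −0.12 ± 0.07 for genotype. Dusp1 differed by 0.40 ± 0.19 for genotype and −0.34 ± 0.19 on fluoxetine. Srf differed by 0.14 ± 0.08 and Elk1 by −0.08 ± 0.05 on lithium. None passed, with adjusted p above 0.71 in limma.

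All 25 co-induced immediate early genes were tested and 0 were called. Their median within-group SD was 0.27, and 24 of 25 were above the median of all genes. The median difference was −0.04 for genotype (11 higher, 14 lower), 0.12 on fluoxetine (18 higher) and 0.19 on lithium (21 higher), against about 0 for all genes. These genes move together across libraries, so the counts are not of separate observations. Nr4a3, an orphan nuclear receptor, differed by −0.47 ± 0.16 for genotype, 0.70 ± 0.16 on fluoxetine and 0.53 ± 0.16 on lithium. Those comparisons share the HT vehicle libraries. Homer1, a synaptic scaffold, differed by −0.37 ± 0.14 for genotype, Klf4 by 0.52 ± 0.11 on fluoxetine and Klf10 by 0.44 ± 0.14 on lithium. The smallest adjusted p in the 3 comparisons was 0.343 in limma, for Klf4.

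Of the 13 late activity genes, which AP-1 and other early factors are known to switch on, all were tested and 0 were called. For genotype 11 of 13 were lower, with a median of −0.14, against about 0 for all genes. Pcsk1, a prohormone convertase, differed by −0.26 ± 0.09, and Nptx2, a secreted synaptic pentraxin, by −0.14 ± 0.07. On fluoxetine the median was 0.04, with Timp1, a protease inhibitor, at 0.83 ± 0.33 and Pcsk1 at 0.21 ± 0.09. On lithium the median was 0.08, with Nptx2 at 0.17 ± 0.07 and Bdnf at 0.26 ± 0.16. Every adjusted p in limma was above 0.78. Of the 13, 3 had a passing higher slope on the olfactory bulb score and 5 a passing lower one. The genotype count is therefore not of separate observations.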

How the data were processed

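Prefrontal cortex RNA from 24 libraries was prepared with a stranded poly(A) kit, per the labels' protocols. The file the authors deposited holds normalized signal (reads scaled by library) for 18240 Ensembl genes. Salmon 0.11.2, R 3.6.0, DESeq2 1.19.11 and GRCm38 were used, with no role stated, per the submitters' processing notes. Deposited values are whole multiples of 1 read's value in each library: 100% came out whole within 0.01 of a read. In HT vehicle female 2 a read is worth 0.997, so that column rests on its low values. GENCODE M21 names matched 18227 identifiers, and 13 were not matched.

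The main test was limma 3.58.1 (R 4.3.3) on log2(value + 1), with a trend on intensity, for 16825 genes with a mean of at least 10, leaving out 1415. Fold changes on the log2(value + 1) scale understate low genes. The fit had 8 group means of 3 libraries, sexes weighted equally, and Benjamini-Hochberg adjustment over all genes, with calls at an adjusted p under 0.05. edgeR 4.0.16 and DESeq2 1.42.0 on recovered reads were alternatives. A marker score is the mean log2 deviation of its genes. Correlations used 100000 permutations. Named list genes have the 2 smallest p-values of a list in a comparison, and most-alike genes have the highest r (10 for Fos, 3 for the others). The members and lists were chosen with earlier results of these data known.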

Additional observations from a re-analysis of the deposited data

Results flagged for a closer look

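Each of the 6 genes was checked in each of the 4 arms of 6 libraries for a highest or lowest library far from the rest. In 3 of 24 checks a library stood apart, where chance gives about 1 in 20 for separate checks of normally distributed values. The checks used normalized read counts, not the log2 scale of the tests, and the 6 genes were correlated. The 3 flags are therefore not set against that rate. HT lithium male 1 was highest in its arm for Fosb, at 1266 normalized reads against 506.7 in the next library. The same library was highest for Fosl2, at 3343 against 1232. HT vehicle male 3 was highest in its arm for Junb, at 2799 against 2039. Both libraries are among the 6 with the highest olfactory bulb score, at 2.996 and 2.658. The part of that signal in these values was not tested. Fos in these libraries stood at 2129 and 2112 and was not far enough from the rest of its arm to be counted.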

How the results depend on the processing

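No member reached an adjusted p under 0.05 in any of 11 comparisons under up to 38 other settings, and the smallest was 0.347 (limma, lithium minus fluoxetine, with a library left out). The members' median share between arms, 6.85%, moved to 18.9% with batch as a term, 15.77% with the olfactory bulb score as a term, 13.05% without the 6 bulb-high libraries, and 5.16% to 14.1% with each library left out, the highest without WT vehicle female 2. The median correlation, 0.684, was 0.580 for deviations from group means, 0.420 with the bulb score removed too, 0.735 within P40_L1, 0.601 within P40_L2, 0.651 without the bulb-high libraries, 0.605 without the 2 farthest libraries and 0.631 to 0.727 with each library left out.

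Directions of uncalled differences changed as follows. For fluoxetine without the bulb-high libraries, Fos was 0.046, Fosb 0.170, Junb 0.045 and Jund −0.0021. For Jun on fluoxetine the value was −0.051 with the bulb score, −0.020 with a striatal score, −0.0068 in edgeR and −0.0072 in DESeq2. For lithium with batch as a term, Fos was −0.917, Fosb −0.485, Fosl2 −0.327, Jun 0.045 and Junb −0.536, and Fos with the striatal score was −0.042. The Jund bulb slope within P40_L1 was −0.00092. With each library left out, the genotype difference of Fos ran from −0.036 to 0.399. On fluoxetine Fosb ran from −0.222 to 0.220 and Jun from −0.052 to 0.062. On lithium Fos ran from −0.063 to 0.314, Fosb from −0.044 to 0.419 and Jun from −0.124 to 0.012. The cause was not tested. The Jun bulb slope kept its direction without the bulb-high libraries, at 0.035, and no longer passed.

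The replicate numbers were not treated as pairs: 12 of 36 correlations between same-numbered libraries were above 0.1, from −0.695 to 0.724. Libraries with different numbers were not compared, so whether the numbers pair the samples cannot be told. A fit with the replicate number as a block called 0 members, and the members' median share between arms was 7.42%. Lithium comparisons could not be fitted within P40_L1, which holds no lithium library, and DESeq2 gave no joint test of the 4 arms. Small effects on Fos, Fosb and Fosl2 were not detectable at their spread between libraries.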
